A study of Mus musculus with 12 samples.

Results

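Collagens and laminins were examined in the brains of mice that lack exon 7 of Auts2, a neurodevelopmental regulator gene. All protein-coding genes with a collagen symbol (Col, a number, a and a number) other than Col24a1 were taken, together with the genes of the laminin alpha, beta and gamma chains. This gave 54 genes, 43 collagens and 11 laminins, of 55487 gene identifiers in each file. They were sorted into 10 fibrillar collagens, 8 basement membrane collagens and 3 collagens set apart as neuronal. The others were 10 collagens of types VI, VII, VIII and X, 12 fibril-associated and other collagens, and the 11 laminins. The neuronal class holds Col19a1, Col23a1 and Col25a1 and is not a protein type. RNA of 12 individual male mice was sequenced as paired ends, in 4 groups of 3.

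The first tissue was forebrain at postnatal day 0 (P0). Its knockouts were labelled Cmv-cre, Auts2-ex7-/-, and its controls were wild-type littermates labelled BL6. Cmv-cre acts throughout the body, so meningeal and vascular cells are within its reach as well as neural cells. The second tissue was hippocampus at postnatal day 14 (P14). Its knockouts were labelled Nes-cre, Auts2-ex7-/-, and its controls auts2-ex7-fl-het, heterozygotes of the floxed allele. Whether these controls carried Nes-cre is not stated. The nestin promoter drives this Cre in neural progenitors and their progeny, so fibroblasts and endothelium are not its main targets. The floxed allele is Auts2tm1.1Dare, and the Cre strains crossed to it were B6.C-Tg(CMV-cre)1Cgn/J and B6.Cg-Tg(Nes-cre)1Kln/J.

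Collagens are trimers of chains wound into a triple helix. Fibrillar collagens form the cables of connective tissue, which in the brain lie mainly in the meninges and vessel walls. Type IV collagen and laminin form separate networks that nidogen and perlecan join into basement membranes, the sheets under endothelium and at the pial surface. A laminin is a trimer of 1 alpha, 1 beta and 1 gamma chain, and cells bind it through integrins and dystroglycan. Some transmembrane collagens, such as Col23a1 and Col25a1, are made by neurons.

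Total counts lay between 11247150 and 16796797 per P0 library and between 16830720 and 23340621 per P14 library. Auts2 itself did not pass the test at P0 (log2 fold change 0.16, edgeR adjusted p = 0.362) or at P14 (-0.30, adjusted p = 0.111). Its gene-level count sums all isoforms and does not measure exon 7 alone. Forebrain markers (Emx1, Lhx2 and 6 others) summed to between 649.2 and 986.6 CPM (counts per 1000000 counted reads) at P0, and hippocampal markers (Prox1, Wfs1, Calb1 and 5 others) to between 1015 and 1585 CPM at P14. At P0, the third knockout and the third wild-type library carry library numbers (1415 and 1416) apart from those of the other 4 (1407 to 1410), and what the numbers stand for was not given. At P14, the 3 control libraries differed widely in choroid plexus transcripts, with the first lowest and the third highest of the 6, as described with the P14 results.

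Col4a1, Col9a3 and Col4a2 were the most abundant of the 54 genes, while the other type IV chains ranked from 16 (Col4a5) to 51 (Col4a3). To compare genes, levels are given as CPM per kilobase of exon, averaged over all 12 libraries. Col4a1, the major chain of type IV collagen, stood first at 13.8 CPM per kb, and its partner Col4a2 ranked 3 at 10.99. Col9a3, a fibril-associated collagen chain, was second at 11.9, and 6.07% of its exon length overlaps exons of another gene in an unstranded count. The order differed between the tissues: Col4a1 led at P0 (14.67 CPM per kb in wild types against 7.73 for Col9a3), while the P14 controls had 14.84 for Col9a3 and 13.98 for Col4a1, with overlapping libraries. Col6a1, a chain of the microfibrillar collagen VI, followed at 7.25 and Lamc1, the gamma chain of most laminins, at 6.202. Among the fibrillar collagens, the type I chains Col1a2 (3.21) and Col1a1 (3.17) and the type III chain Col3a1 (3.11) lay close together. Among the neuronal collagens, Col25a1 (4.12) stood above Col23a1 (2.94) and Col19a1 (1.59) in this mean. At P0 the wild types had more Col23a1 (2.99 CPM per kb) than Col25a1 (2.71), and in the P14 controls Col19a1 (2.45) was above Col23a1 (2.22). Col10a1, the collagen of hypertrophic cartilage, was last at 0.0516 CPM per kb, with between 0 and 7 counts in a library.

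The control tissues differed in 27 of the 53 genes tested, 14 higher in P14 hippocampus and 13 higher in P0 forebrain (edgeR's quasi-likelihood test, Benjamini-Hochberg adjusted p under 0.05, the threshold used throughout). Of all genes tested in this comparison, 64.7% passed, 32.5% higher and 32.2% lower, so a call does not set a gene apart here. Tissue, age, control genotype and library preparation cannot be told apart. Laminins passed in 10 of 11 cases, 6 of them higher in the P14 controls, with a median log2 difference of 0.37 over the 11 against -0.00 over all genes. Lama2, the alpha chain of muscle and astrocytic endfoot laminin, had 11.6, 12.55 and 11.85 CPM in the P0 controls and 19.5, 20.05 and 26.5 CPM in the P14 controls, with no overlap. Of the basement membrane collagens only Col18a1 passed, with a log2 difference of -0.71, and Col4a1 differed by -0.08 with a 95% interval from -0.32 to 0.17.

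All 3 neuronal collagens passed between the control tissues. Col25a1, which encodes a transmembrane collagen first known from amyloid plaques, had 35.9, 34.2 and 34.99 CPM in the P0 controls and 86.7, 78.6 and 81.7 CPM in the P14 controls. Col19a1 had 5.54, 5.43 and 8.08 CPM at P0 and 15.1, 14.02 and 21.6 CPM at P14. In both genes each P14 control lay above each P0 control, with log2 differences of 1.23 and 1.38. Col23a1 was lower at P14 instead, by a log2 difference of -0.44. The largest differences of the 53 were those of Col20a1 (2.85 higher at P14, from 5.09 ± 0.902 CPM there against 0.671 ± 0.236 at P0) and of Col2a1, the cartilage collagen (-2.82, from 1.15 ± 0.423 against 8.14 ± 1.66 CPM).

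**Figure D1:**
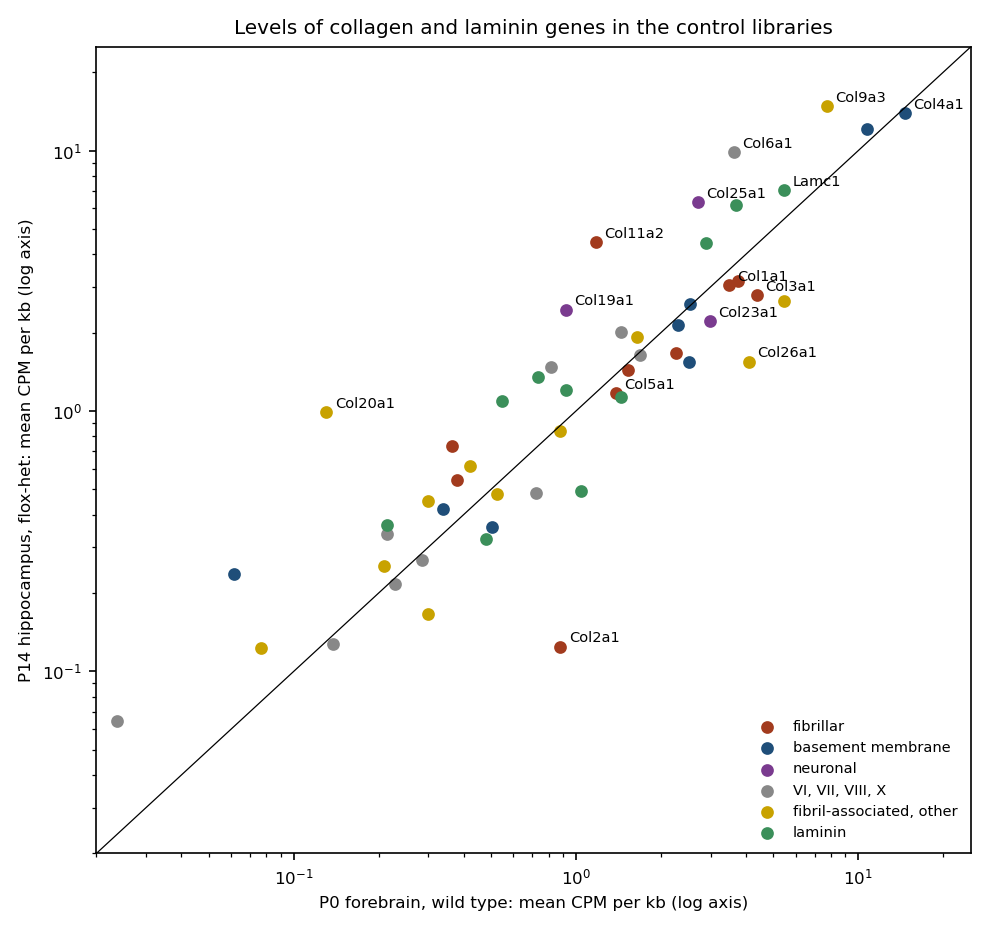
Mean level of 53 of the 54 genes in the 3 wild-type P0 forebrain libraries (horizontal) and the 3 flox-het P14 hippocampus libraries (vertical), in CPM per kb of exon on log axes, coloured by class, with the line of equal levels. Col4a1 lies near the line at the upper right, Col9a3, Col25a1, Col19a1 and Col20a1 lie above it, and Col26a1 and Col2a1 lie below it.

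In P0 forebrain, 2 of the 50 genes tested fell in the knockout and none rose. Col26a1, which encodes a small secreted collagen, was among them. The background share of genes that passed in the lower direction was 0.717% of 16176, and in the higher direction 0.192%. Including these, 39 of the 50 genes had a log2 fold change below 0, where 50.1% of all genes tested did, and their median was -0.17 against -0.00 over all genes. Without adjustment, p was under 0.05 for 13 lower and 0 higher genes, against 9.17% and 6.95% of all genes. Col4a3, Col10a1, Col17a1 and Col20a1 had too few counts to be tested at P0. Each fold change compares knockout with control, and with 3 libraries against 3 the smallest exact two-sided permutation p is 0.1, which each gene with separated groups had. In bulk tissue, fewer cells of a type and less RNA per cell cannot be told apart.

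Col26a1 had 32.5, 39.0 and 29.2 CPM in the wild types and 22.3, 18.2 and 23.2 CPM in the knockouts. Every knockout lay below every wild type. This gave a log2 fold change of -0.66 (SE 0.13, edgeR adjusted p = 0.0368). Leaving out knockout 1, knockout 2, wild type 1 or wild type 2 ended the call, with adjusted p from 0.111 to 0.209, as did non-robust fitting (0.0594). Col26a1 lies on the same chromosome as Auts2, chromosome 5 from 136741759 to 136883209 (GRCm38), 4.2 Mb from it. Whether alleles linked to the targeted locus differed between the groups was not tested.

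The laminins shared the direction at P0 in 9 of 11 chains, with a median log2 fold change of -0.17. Lama3, an alpha chain of epithelial laminin, had 5.63, 5.59 and 4.21 CPM in wild types and 3.90, 2.82 and 3.09 CPM in knockouts. Its groups did not overlap, but its log2 fold change of -0.65 missed the threshold (edgeR adjusted p = 0.168). Lamb3, a beta chain of epithelial laminin, had a fold change of the other sign (0.34, adjusted p = 0.658), at only 1.05 to 2.11 CPM in the 6 libraries. Lamc3, a further gamma chain, was measured at -0.55 (adjusted p = 0.231). The abundant chains overlapped between the groups. Lamb1 had 39.2, 32.4 and 37.7 CPM against 36.7, 37.2 and 31.5 CPM in the knockouts. Lamb2 had 17.9, 17.7 and 17.0 CPM against 14.5, 15.2 and 21.1 CPM. Their log2 fold changes were -0.06 and -0.04. Lamc1 had 49.9, 44.1 and 41.8 CPM in wild types and 50.9, 50.2 and 33.4 CPM in knockouts, which overlapped (log2 fold change -0.02, 95% interval -0.31 to 0.27).

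All 7 basement membrane collagens tested had a log2 fold change below 0 at P0, with a median of -0.36, and none passed the test. Col4a5, a chain of the alpha-5 type IV network, came nearest, with 17.2, 18.5 and 15.4 CPM in wild types and 11.9, 13.3 and 12.5 CPM in knockouts. These groups did not overlap (log2 fold change -0.44, edgeR adjusted p = 0.102). Col18a1, the source of endostatin, had 15.5, 19.1 and 18.3 CPM against 14.3, 14.1 and 13.1 CPM. Its groups were also apart (-0.36, adjusted p = 0.171). The abundant chains had smaller differences. Col4a1 had 108.8, 108.1 and 111.5 CPM against 99.9, 109.9 and 89.7 CPM, and 1 knockout lay within the wild-type range. Col4a2, its head-to-head neighbour, had 69.2, 69.9 and 74.3 CPM against 64.6, 72.4 and 65.3 CPM. Their log2 fold changes were -0.14 (95% interval -0.31 to 0.03) and -0.08 (-0.24 to 0.08).

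The fibrillar collagens were near the background at P0, with 6 of 10 below 0 and a median of -0.02. Col5a2, a chain that controls fibril diameter, had 19.5, 25.4 and 20.1 CPM in wild types and 17.3, 16.4 and 17.97 CPM in knockouts. Its groups did not overlap (log2 fold change -0.33, edgeR adjusted p = 0.208). Col3a1, its neighbour on chromosome 1 and the fibrillar collagen of soft tissue and vessels, had 45.0, 44.6 and 38.8 CPM against 40.1, 33.3 and 28.1 CPM. The groups overlapped in 1 library (-0.35, adjusted p = 0.188). The type I chains overlapped. Col1a1 had 24.4, 22.0 and 22.0 CPM against 24.0, 21.5 and 19.1 CPM. Col1a2 had 48.9, 50.5 and 40.9 CPM against 52.3, 39.6 and 30.9 CPM.

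All 3 neuronal collagens were below 0 at P0, and none passed. Col25a1 had 35.9, 34.2 and 34.99 CPM in wild types and 30.1, 31.9 and 25.6 CPM in knockouts. The groups were apart, by a log2 fold change of -0.27 (edgeR adjusted p = 0.212). Col19a1 overlapped, with 5.65, 4.72 and 3.75 CPM in knockouts against the wild-type values given above (-0.46, adjusted p = 0.320). Col23a1 overlapped as well, with 16.6, 19.0 and 15.8 CPM against 17.6, 16.7 and 16.2 CPM (log2 fold change -0.03, 95% interval -0.26 to 0.20). Of the remaining collagens, Col6a2, a collagen VI chain, had 13.4, 14.4 and 14.4 CPM against 11.8, 10.9 and 9.56 CPM. Its groups were apart and its log2 fold change was -0.40 (adjusted p = 0.154). Types VI, VII, VIII and X had 7 of 9 tested below 0, with a median of -0.26, and the fibril-associated and other collagens 7 of 10, with a median of -0.05. Col7a1, the anchoring fibril collagen, had the highest log2 fold change of the 50 genes at 0.52 (adjusted p = 0.370), and Col28a1 the lowest at -0.76 (adjusted p = 0.309).

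**Figure D2:**
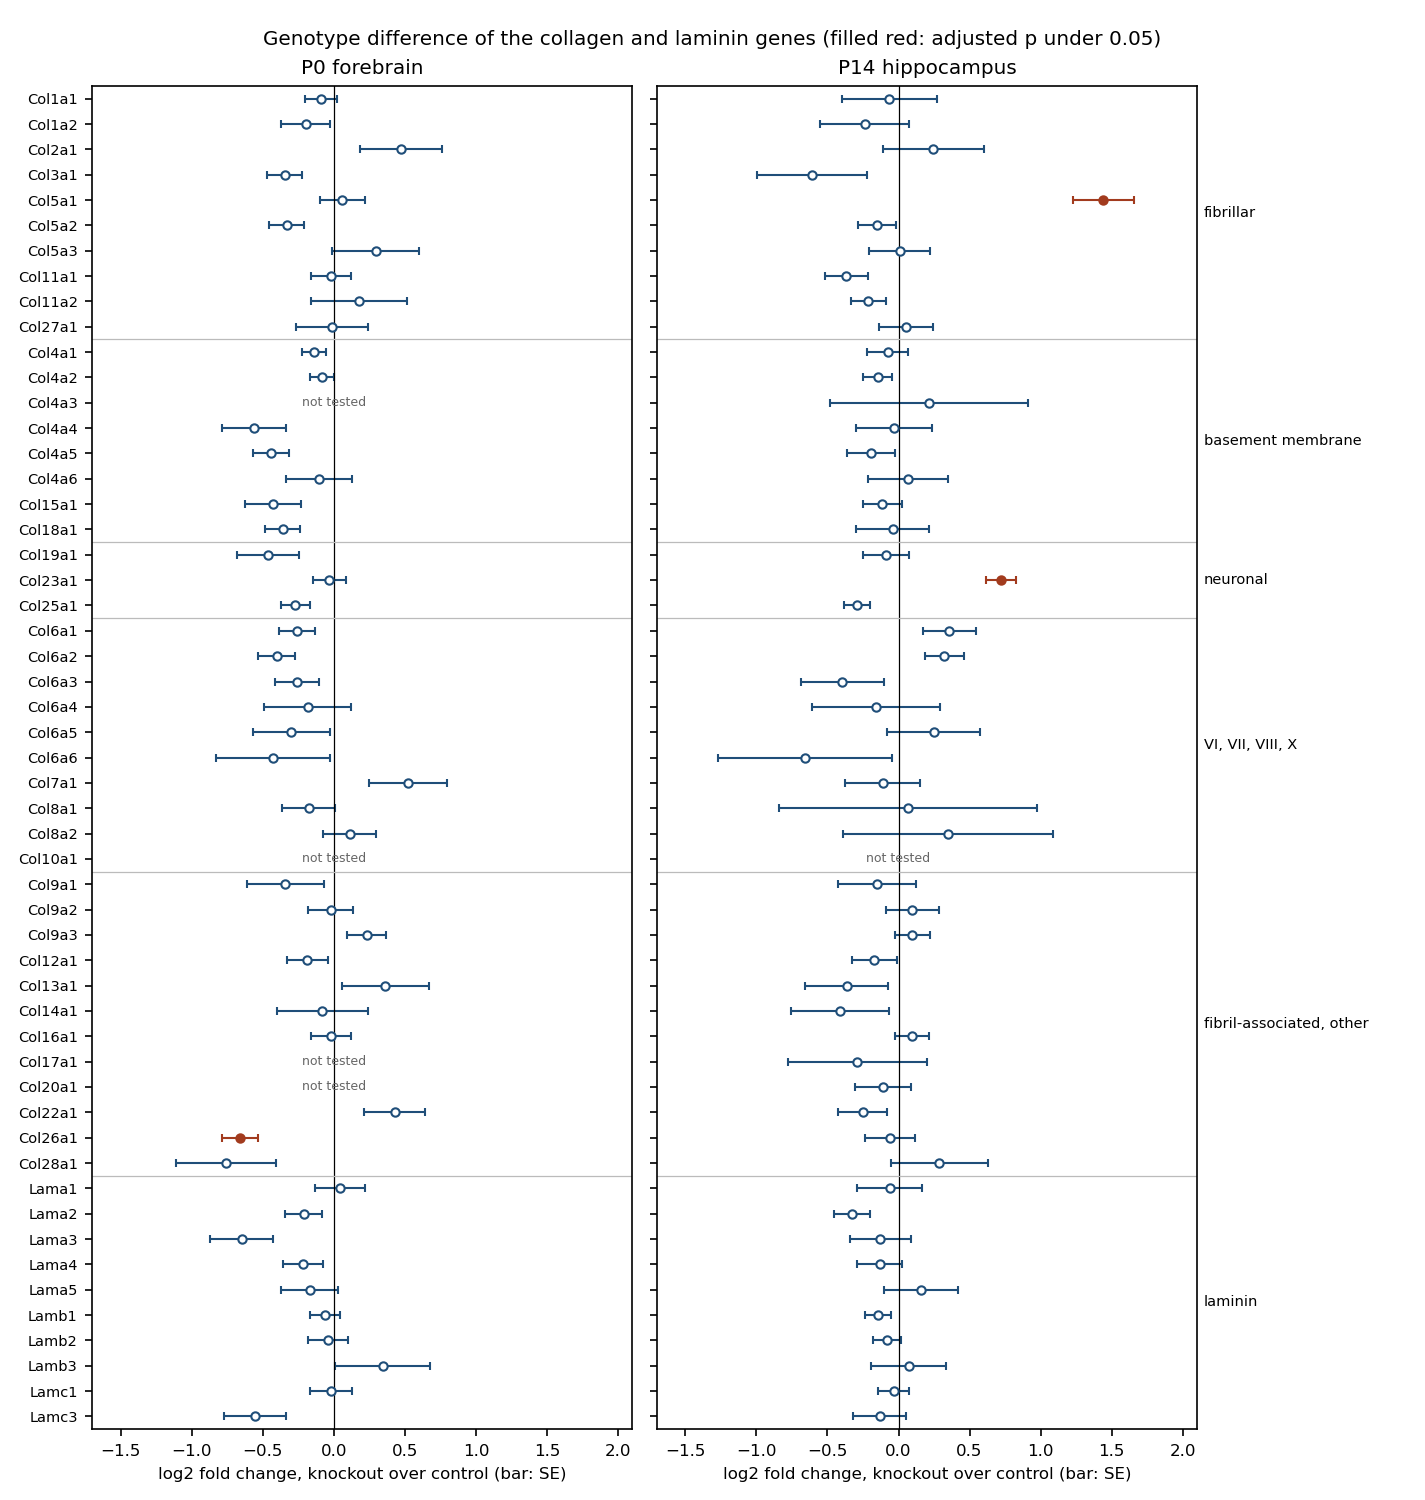
Log2 fold change of knockout over control for 53 of the 54 genes in P0 forebrain (left) and P14 hippocampus (right), with bars for the SE, ordered by class. Filled red points passed the test: Col26a1 lies below 0 at P0, and Col5a1 and Col23a1 above 0 at P14.

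Summed over the 54 genes, the wild-type P0 libraries had 818.4, 830.2 and 835.5 CPM and the knockouts 756.2, 764.2 and 726.3 CPM. All 3 knockouts lay below all 3 wild types. Separation in the lower direction held for 14 of the 50 genes, against 11.1% of all genes tested, and in the higher direction for 1 gene, Col22a1, against 10.7%. Markers of meningeal fibroblasts (Foxc1, Slc6a13, Lum and 16 others) summed to 148.5, 140.3 and 125.6 CPM in wild types and 131.5, 110.3 and 92.5 CPM in knockouts. These sums overlapped in 1 knockout library, 15 of 17 tested were below 0, and none passed. Among the wild types this sum fell from the first library to the third, while that of the 54 genes rose. The classes differed in this. Laminins fell (173.4, 165.4 and 160.1 CPM), as did the single genes Col1a1 and Col3a1. Basement membrane collagens rose (230.2, 237.0 and 247.1 CPM), as did the fibril-associated and neuronal classes. Fibrillar collagens (189.2, 193.3 and 184.3 CPM) and types VI, VII, VIII and X (58.6, 56.5 and 63.8 CPM) had no steady order. Mural cell markers summed to between 193.7 and 196.7 CPM in wild types and between 149.5 and 186.5 CPM in knockouts, while endothelial markers overlapped (213.1 to 237.4 and 205.6 to 227.2 CPM). The sum of 8 forebrain transcription factor markers was higher in all 3 knockouts (860.6 to 986.6 CPM) than in the wild types (649.2 to 778.9 CPM), and Lhx2 alone of them passed. Cartilage, bone and muscle markers were low, at 8.65, 9.315 and 9.36 CPM in wild types and 9.78, 10.03 and 10.04 CPM in knockouts. In this sum all 3 knockouts lay above all 3 wild types. Bglap and Ckm were at 0 in every wild type, while no marker was at 0 in every knockout. Of the 12 markers, 8 had too few counts to be tested at P0. The 4 tested split into 2 above 0 and 2 below, and none passed. The sum of the choroid plexus markers was also higher in all 3 knockouts, at 1079, 1012 and 977 CPM against 901.9, 747.5 and 941.1 CPM. Ttr alone made up 947.6, 888.2 and 856.8 CPM of it in knockouts and 775.3, 630.2 and 801.8 CPM in wild types. Of the 14 markers, 8 had a log2 fold change above 0 and 6 below, and none passed. The part of these cell types in the collagen values was not tested. In the 4 libraries numbered 1407 to 1410, 5 of the 50 genes fell (among them Col26a1, Col3a1, Col4a5 and Col5a2), and the median was -0.13. In that fit 2107 genes were called in all, against 116 lower and 31 higher in the main analysis. A call there does not set a gene apart.

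**Figure D3:**
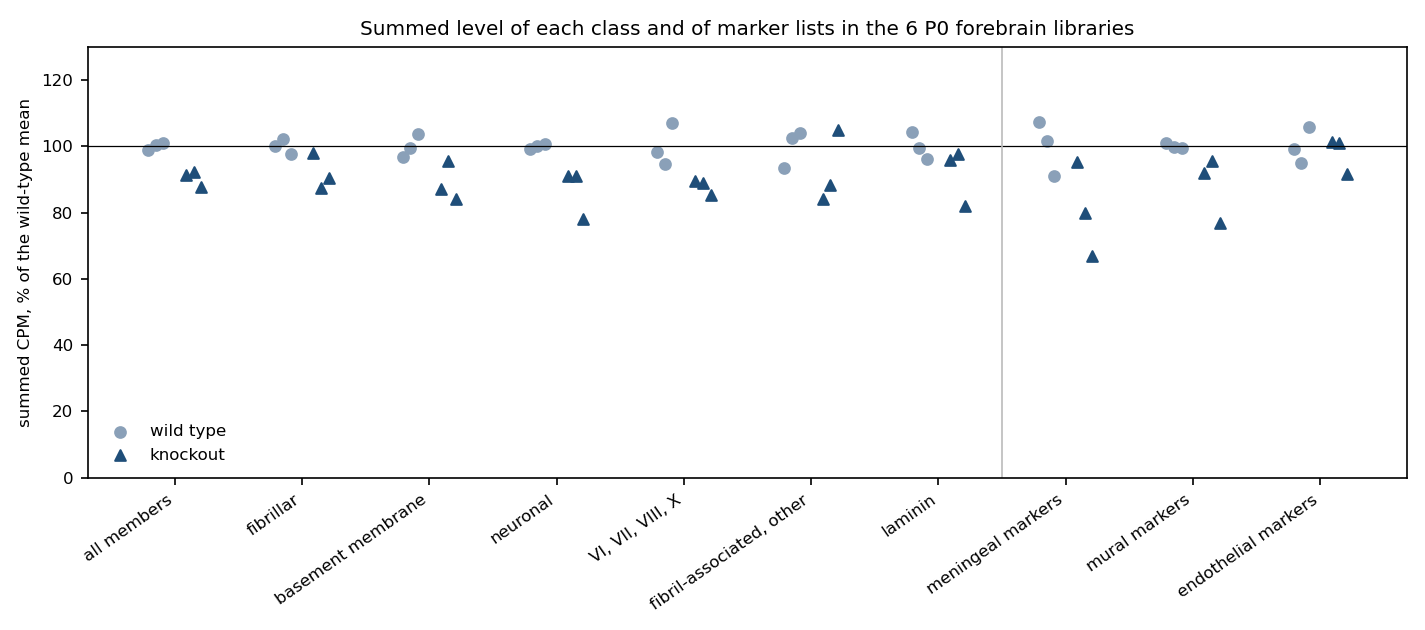
Summed CPM of each class of collagen and laminin genes (left of the line) and of 3 cell type marker lists (right) in the 6 P0 forebrain libraries, as percent of the wild-type mean. Points are libraries, circles wild type and triangles knockout, and all 3 knockouts lie below all 3 wild types for the 54 genes together, while the meningeal list overlaps in 1 knockout library.

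In P14 hippocampus, 2 of the 53 genes tested rose in the knockout and none fell. They were Col5a1, the fibril-initiating alpha-1 chain of type V collagen, and Col23a1, a transmembrane collagen. The background share of genes that passed in the higher direction was 1.21% of 17208, and in the lower direction 0.773%. Of the 53 genes, 34 had a log2 fold change below 0 against 51.5% of all genes tested, with a median of -0.08 against -0.01. Without adjustment, p was under 0.05 for 3 higher and 3 lower genes, against 7.84% and 7.4% of all genes.

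Col5a1 had 9.07, 9.997 and 10.8 CPM in the controls and 35.2, 26.3 and 18.7 CPM in the knockouts. Every knockout was above every control, and the knockouts were spread over a wider range than the controls. Mean CPM was 9.94 ± 0.845 in controls against 26.7 ± 8.26 in knockouts (SD, n = 3 each), a 2.72-fold rise (log2 fold change 1.44, SE 0.21, edgeR adjusted p = 0.0127). Leaving out any single control raised adjusted p to between 0.0774 and 0.0994, while the log2 fold change stayed between 1.38 and 1.51. Over all 6 single-library omissions, knockouts included, the log2 fold change ranged more widely, from 1.19 to 1.64, and the call held in 3. Col5a2, its usual partner in type V trimers, had 16.0, 13.5 and 18.7 CPM in controls and 14.97, 13.3 and 14.8 CPM in knockouts. These overlapped (log2 fold change -0.15, 95% interval -0.41 to 0.11). For Col5a3, another type V chain, the log2 fold change was 0.01 (adjusted p = 0.993).

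Col23a1 had 12.5, 13.0 and 12.6 CPM in the controls and 21.9, 20.9 and 19.5 CPM in the knockouts. Both groups were tight and far apart. Mean CPM was 12.7 ± 0.259 in controls against 20.8 ± 1.22 in knockouts (SD, n = 3 each), a 1.65-fold rise (log2 fold change 0.72, SE 0.11, edgeR adjusted p = 0.00265). The call held in all 12 alternative analyses, which included leaving out each of the 6 libraries, with log2 fold changes from 0.66 to 0.76.

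**Figure D4:**
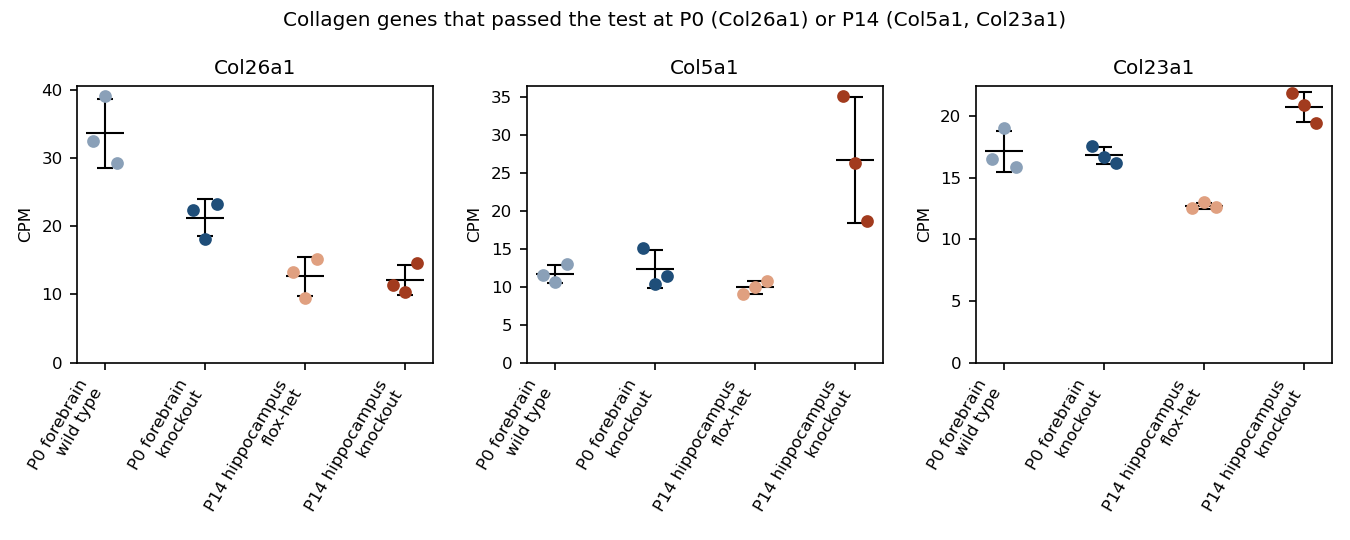
CPM of Col26a1, Col5a1 and Col23a1 in each of the 12 libraries by group, with a horizontal line for the mean and bars for the SD of 3 libraries. Col26a1 is lower in the P0 knockouts, and Col5a1 and Col23a1 are higher in the P14 knockouts, where Col5a1 spans 18.7 to 35.2 CPM.

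The promoters of the genes that rose at P14 are shown because these 2 genes moved in the same tissue. They are the 250 bases before each annotated start, from the RefSeq promoter table (GRCm38.p6), which matched 39 of the 54 genes. Col5a1 lies on the plus strand of chromosome 2, with the window chr2:27886175-27886424, and Col23a1 on the plus strand of chromosome 11, with the window chr11:51289670-51289919. Capitals mark the GC box GGGCGG, the core letters bound by Sp1-type factors, or CCGCCC where it reads on the opposite strand.
Col5a1: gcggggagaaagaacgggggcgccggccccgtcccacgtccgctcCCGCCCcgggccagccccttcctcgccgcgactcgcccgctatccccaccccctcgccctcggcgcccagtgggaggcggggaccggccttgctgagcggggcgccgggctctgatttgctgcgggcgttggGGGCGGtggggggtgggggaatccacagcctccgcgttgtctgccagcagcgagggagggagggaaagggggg
Col23a1: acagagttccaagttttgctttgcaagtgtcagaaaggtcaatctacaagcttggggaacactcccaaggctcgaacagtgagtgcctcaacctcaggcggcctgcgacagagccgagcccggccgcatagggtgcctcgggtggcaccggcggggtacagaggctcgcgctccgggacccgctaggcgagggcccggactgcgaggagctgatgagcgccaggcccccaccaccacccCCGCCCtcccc

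The Col5a1 window was 76.4% G and C and held 2 GC boxes, and that of Col23a1 was 66% G and C and held 1. Neither held a TATA box (TATAAA) or a CCAAT box (CCAAT) on either strand. GC boxes are common: 32.7% of 32851 windows of the same length held at least 1, as did 23 of the 39 collagen and laminin genes with a window. CCAAT stood in 33.8% of all windows and in 14 of the 39 genes, and TATAAA in 12.4% and in 5. The units differ: the 39 genes had 43 windows, and a gene was counted if any of its windows held the letters, while the background counts windows.

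Among the other neuronal collagens at P14, Col25a1 had 86.7, 78.6 and 81.7 CPM in controls and 66.1, 75.4 and 58.2 CPM in knockouts. The groups did not overlap, in the direction opposite to Col23a1, and the log2 fold change of -0.29 missed the threshold (edgeR adjusted p = 0.116). It passed when no filter on low counts was used (adjusted p = 0.0342). Col19a1 had 15.1, 14.02 and 21.6 CPM against 15.7, 17.8 and 13.7 CPM, which overlapped. The 3 neuronal genes summed to between 105.6 and 115.8 CPM in controls and between 91.3 and 114.2 CPM in knockouts.

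No laminin passed at P14. Lama2 had 19.5, 20.1 and 26.5 CPM in controls and 15.7, 17.8 and 18.8 CPM in knockouts, so that the groups were apart (log2 fold change -0.33, edgeR adjusted p = 0.233). Lamb1 had 56.7, 56.4 and 70.2 CPM against 55.9, 53.9 and 54.6 CPM. Its groups were apart by less than 1 CPM, and its adjusted p was 0.493. Lamc1 had 49.9, 55.3 and 69.9 CPM against 55.8, 55.9 and 58.6 CPM, and Lamb2 had 24.9, 26.7 and 28.7 CPM against 23.8, 27.6 and 24.0 CPM. Both overlapped.

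Nor did any basement membrane collagen pass at P14, where the median of the 8 was -0.06. Col4a1 had 85.9, 98.2 and 129.0 CPM in controls and 91.2, 96.8 and 107.3 CPM in knockouts. Col4a2 had 68.4, 78.0 and 94.8 CPM against 70.3, 74.6 and 71.5 CPM. Both overlapped. Col4a5 (14.8, 14.5 and 22.8 CPM against 15.5, 13.7 and 16.3) and Col18a1 (7.63, 8.94 and 15.9 CPM against 10.5, 9.43 and 11.6) did as well, and in all 4 the third control was the highest of the 6 libraries. Among the fibrillar collagens, Col3a1 had 33.2, 18.1 and 31.1 CPM against 20.9, 10.6 and 22.3 CPM. The groups overlapped (log2 fold change -0.61, SE 0.39). Col1a1 (22.2, 13.1 and 24.6 CPM against 25.5, 13.6 and 17.8) and Col1a2 (37.7, 28.7 and 50.8 CPM against 41.7, 23.4 and 33.8) overlapped. Col26a1, lower at P0, overlapped at P14 with 13.3, 9.49 and 15.1 CPM in controls and 11.4, 10.4 and 14.6 CPM in knockouts. Col22a1, a collagen of tissue junctions, had 5.14, 6.31 and 5.59 CPM against 4.82, 4.74 and 4.64 CPM. Those groups were apart (log2 fold change -0.25, edgeR adjusted p = 0.532). Groups were apart in 2 genes in the higher and 4 in the lower direction, against 9.43% and 10.6% of all genes.

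The P14 controls differed widely among themselves in genes of choroid plexus, the secretory epithelium that can remain attached to dissected hippocampus. Ttr, its most abundant transcript, had 131.4, 915.6 and 2408 CPM in the controls and 1441, 1924 and 1290 CPM in the knockouts, and the 14 choroid plexus markers summed to 353, 1424 and 3499 CPM against 1914, 2699 and 1811 CPM. The third control was the highest of the 6 P14 libraries for 29 of the 53 genes, against 18.8% of all genes tested, a pattern chosen after the values were seen. For 12 of the 53 genes the first control was also the lowest, against 5.6% of all genes. Col8a1, a short-chain collagen of basement membranes, had 2.02, 7.82 and 24.9 CPM in the controls and 9.80, 14.9 and 11.8 CPM in the knockouts. Its level in the third control was 12.3 times that in the first, compared with 18.3 times for Ttr, 6.54 for Col8a2 and 6.46 for Col4a3. Col4a3 and Lama5 ranked the 6 libraries exactly as Ttr did, an order that 0.697% of all genes tested shared. Col23a1 (1.01 times) and Col5a1 (1.19 times) were nearly equal in these 2 controls. Without the third control the median of the P14 log2 fold changes turned from -0.08 to 0.06, and Col23a1 and Col4a3 were the 2 genes called. That fit called 1808 genes in all, against 209 higher and 133 lower in the main analysis.

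**Figure D5:**
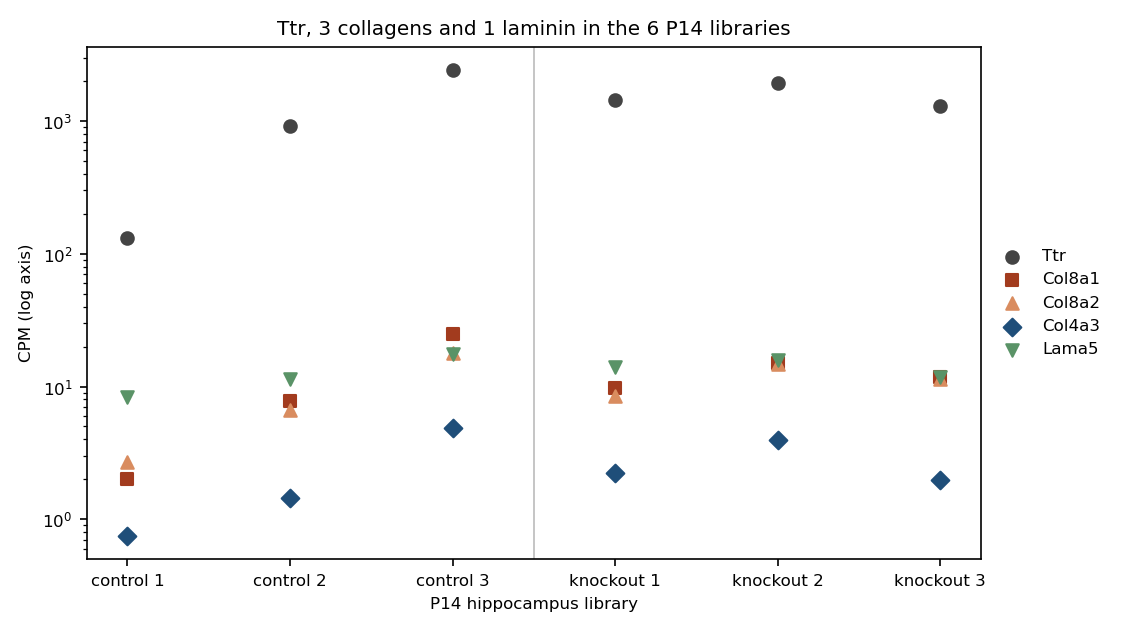
CPM (log axis) of Ttr, Col8a1, Col8a2, Col4a3 and Lama5 in each of the 3 control and 3 knockout P14 hippocampus libraries. All 5 genes are lowest in control 1 and highest in control 3, where Col8a1 reaches 24.9 CPM, and the knockouts lie between.

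Other cell type markers also moved at P14. Meningeal fibroblast markers summed to 205.3, 184.4 and 178.0 CPM in controls and 163.0, 111.7 and 154.0 CPM in knockouts. Of this list only Vtn passed, and it fell (log2 fold change -0.65, edgeR adjusted p = 0.00892). Vtn alone made up 65.8, 54.2 and 53.5 CPM of the sum in controls and 38.7, 30.7 and 40.6 CPM in knockouts. Which cells its RNA came from was not tested. Mural cell markers overlapped, at 326.7, 353.8 and 366.7 CPM in controls and 272.4, 271.3 and 353.8 CPM in knockouts. Endothelial markers summed to between 389.0 and 415.7 CPM in controls and between 329.9 and 340.4 CPM in knockouts, with 16 of 17 below 0 and none called. Hippocampal markers summed to between 1298 and 1585 CPM in controls and between 1015 and 1128 CPM in knockouts, and Prox1, C1ql2, Dsp, Lct and Calb1 of them fell. The meningeal, endothelial and hippocampal lists were lower in the knockouts while Col5a1 and Col23a1 were higher. What part any of these lists had in the collagen values was not tested.

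The effect of genotype was then compared between the tissues, in a fit to all 12 libraries with an interaction term. The tissues also differ in age, Cre line and control genotype, which cannot be told apart. Col5a1 and Col23a1 passed, of 53 tested, with a background share of 1.79% in either direction. The P14 effect exceeded the P0 effect by 1.37 on the log2 scale for Col5a1 (SE 0.28, edgeR adjusted p = 0.0178), which at P0 had 11.5, 10.7 and 13.0 CPM in wild types and 15.2, 10.4 and 11.4 CPM in knockouts. For Col23a1 the difference was 0.73 (SE 0.15, adjusted p = 0.0152). Leaving out control 1 or control 2 at P14, wild type 1 or knockout 2 at P0 ended the call of Col5a1 (adjusted p 0.0525 to 0.0609), and leaving out wild type 2 at P0 or knockout 1 at P14 did so for Col23a1 (0.0564 to 0.0698). The P0 call of Col26a1 did not differ past the threshold between the tissues by this test, with an interaction of 0.58 (adjusted p = 0.241). Col6a2, with a log2 fold change of -0.40 at P0 and measured at 13.2, 12.8 and 14.9 CPM in P14 controls and 20.7, 15.3 and 14.8 CPM in P14 knockouts, missed the threshold (0.71, adjusted p = 0.0657). DESeq2 called it, as did edgeR when low counts were kept or the third P14 control was left out.

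The genes that build, anchor or sense these proteins were examined from lists of the same pathway. Of 12 other basement membrane genes, among them the nidogens, perlecan and agrin, none passed at P0 or P14, and their medians were -0.06 and -0.05. Of 27 genes for collagen synthesis and processing, such as prolyl and lysyl hydroxylases, lysyl oxidases and procollagen proteases, 26 were tested in each tissue and none passed, with medians of -0.09 and -0.08. Of 17 genes listed as receptors for collagen and laminin, none passed at P0 and Itga7 fell at P14. Their medians were -0.24 and -0.11, and 14 of the 17 were below 0 in each tissue. Itga7, the alpha chain of a laminin-binding integrin, had 30.7, 29.1 and 29.3 CPM in P14 controls and 19.3, 17.0 and 20.8 CPM in knockouts. The groups were far apart, by a log2 fold change of -0.63 (edgeR adjusted p = 0.00377). At P0, Itga7 had 7.56, 6.32 and 5.70 CPM in wild types and 3.90, 3.32 and 5.45 CPM in knockouts, also apart but short of the threshold (-0.61, adjusted p = 0.185). Of the small leucine-rich proteoglycans, which bind collagen fibrils, none passed, with medians of -0.26 over 7 genes at P0 and -0.53 over 8 genes at P14.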

How the data were processed

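Per the labels, RNA was purified with Trizol, treated with DNase I, made into libraries with TruSeq kits and sequenced on an Illumina HiSeq sequencer. The authors deposited whole-number read counts per Ensembl gene, 1 library per file. The submitters' processing notes name STAR 2.7.5a, edgeR 3.12 and GRCm38 (mm10). The unstranded counts were used, since each strand column held about the same share, so overlapping genes share reads. Symbols, coordinates and exon lengths came from GENCODE on GRCm38.

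Tests used edgeR 4.0.16 (R 4.3.3), separately for the 6 libraries of each tissue (filterByExpr, TMM, estimateDisp, robust glmQLFit, glmQLFTest), with Benjamini-Hochberg adjustment over all genes tested and a threshold of 0.05. The interaction was fitted on 12 libraries. CPM were scaled by TMM over all 12 libraries. SEs are the coefficient divided by the root of F, and 95% intervals are 1.96 SE either way. This normal multiplier makes the intervals narrower than the F test implies. Col22a1 at P0, for example, had an interval from 0.01 to 0.84 with an unadjusted edgeR p of 0.0636. Replicates are separate mice, numbered in accession order, and pairs differed beyond sampling noise (chi-square per degree of freedom 2.93 to 17.5). The tests were checked on simulated counts.

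The genes and lists were chosen with earlier results of these data known. Values in every library are given for genes that passed a genotype test, for up to 8 genes per tissue with separated groups and the smallest p, and for the 3 most abundant genes of the fibrillar, basement membrane, neuronal and laminin classes. Other genes named with their values were chosen after these were seen. Alternatives were RLE factors, DESeq2 1.42.0, no filter on low counts, non-robust fitting, a GC offset, 1 fit on 12 libraries, the P0 library number series as a term or its first 4 libraries alone, CPM in place of CPM per kb for class levels, and leaving out each library. Isoforms and Col24a1 were not analysed here. Results of 1 laminin gene are not reported here, though counts and sums over the genes include it.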

Additional observations from a re-analysis of the deposited data

Results flagged for a closer look

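Col5a1 was flagged because its genotype effect differed between the tissues by the interaction test, by 1.37 on the log2 scale. Col23a1 was flagged for the same reason, with a difference of 0.73. Col22a1 was flagged because its genotype groups were apart in opposite directions. It had 4.03, 3.56 and 4.04 CPM in P0 wild types and 4.06, 5.31 and 6.29 CPM in P0 knockouts, and was lower in every P14 knockout than in every P14 control. The lowest P0 knockout and the highest P0 wild type were nearly equal. The difference of the effects, -0.69, did not pass the interaction test (edgeR adjusted p = 0.216).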

How the results depend on the processing

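None of the gene effects recomputed changed sign under any alternative run. The P0 count of 2 genes became 5 with the 4 libraries of the first number series, 1 with RLE factors and 0 with non-robust fitting, and ranged from 0 to 2 when single libraries were left out. The P0 median of -0.17 moved to -0.13 with those 4 libraries and ranged from -0.18 to -0.11 without single libraries. The P14 count of 2 became 4 without a filter on low counts (Col25a1 and Col6a1 added) and ranged from 1 to 2. The interaction count of 2 became 4 without the filter (Col6a1 and Col6a2 added) and ranged from 1 to 4. The count of 27 between the controls ranged from 19 to 27, and the P14 median from -0.18 to 0.06. On plain CPM, the summed neuronal collagens differed between the control tissues by 0.94 (log2), more than on CPM per kb. The mean sums were 58.5 CPM in P0 wild types and 111.9 CPM in P14 controls, against 6.615 and 11.03 CPM per kb. The causes were not tested. No analysis paired by animal was run, since the labels give no replicate numbers that groups share. By the mouse numbers in the labels, the P0 wild types were M353, M354 and M358 and the knockouts M373, M375 and M356. At P14 the controls were M212, M213 and M215 and the knockouts M205, M134 and M214. Which mice shared a litter was not stated. With the P0 library number series as a term, 2 genes were called at P0, as in the main analysis. Depth limits most the genes with few counts, Col10a1 (0 to 7 in a library) and Col17a1 (3 to 23).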
